A study of Mus musculus with 16 samples.

Results

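The genes described here build or regulate the growing hair: the transcription factor genes Hoxc13, Msx2, Foxn1, Dlx3 and Gata3, the inner root sheath keratin genes Krt25, Krt27 and Krt71, and the genes of trichohyalin (Tchh) and of the deiminase that modifies it (Padi3). They are 10 of the 18194 genes that the platform annotation names on these arrays. They were taken by symbol, through 13 probe sets that carry exactly 1 of these symbols, and where a gene had 2 probe sets (Dlx3, Foxn1 and Msx2) the one with the higher mean over all 16 arrays stood for it and the other served as a check. The symbols are protein-coding genes in RefSeq, on mouse chromosomes 2 (Gata3), 3 (Tchh), 4 (Padi3), 11 (Dlx3, Foxn1, Krt25 and Krt27), 13 (Msx2) and 15 (Hoxc13 and Krt71).

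Affymetrix arrays measured RNA from whole dorsal skin. The mice were C57/B6 females, written C57/B7 in the sample titles. Each of 9 mice was biopsied before treatment at an age of 8.5 weeks (day 0), and a second biopsy was taken at day 5 from skin that had received a daily topical application for 4 days. The day-5 arrays came from 3 mice given tofacitinib (mice 7, 8 and 9), 2 given ruxolitinib (mice 4 and 6) and 2 given the vehicle DMSO (mice 2 and 3), and day 0 had 9 arrays, of which those of mice 1 and 5 had no day-5 partner. Tofacitinib and ruxolitinib are inhibitors of Janus kinases, and the labels state no doses. No group analysed here was left untreated and biopsied again, and every day-5 group had the earlier biopsy and the daily application in common. The labels of 1 array disagree: the title of the mouse 7 day-5 array says tofacitinib, by which it was grouped, and a free-text field says ruxolitinib.

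A hair is made by the matrix, a pocket of dividing cells at the base of the growing follicle. Matrix cells leave it upwards to form the hair shaft and, around it, the inner root sheath, which hardens through keratins and trichohyalin and then breaks down to free the hair. Follicles pass through growth (anagen), regression (catagen) and rest (telogen), and most matrix and sheath products are made only in growth. All values are log2 expression values from GCRMA, a method that corrects for background binding by probe sequence. A probe set was read as at background on an array where its value was at or under 2.43, the highest value of 27 control probe sets without a mouse target. Levels of different genes were not set against each other, since probes differ in how strongly they bind. Where arrays of groups are said to overlap or not, the share of all genes that separate in this way was not counted.

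Of the 10 genes, 6 passed the filter of a value above 4 in at least 2 arrays and were tested with all other genes (Hoxc13, Msx2, Dlx3, Gata3, Krt25 and Tchh), and Foxn1, Krt27, Krt71 and Padi3 did not pass. Krt25 exceeded 4 in 4 arrays, all from inhibitor-treated skin, and so could enter the test only because it was high there. Krt71 was at background on every DMSO and day-0 array, and Padi3 on all 16 arrays. The plot of levels by group shows each gene on every array.

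**Figure D1:**
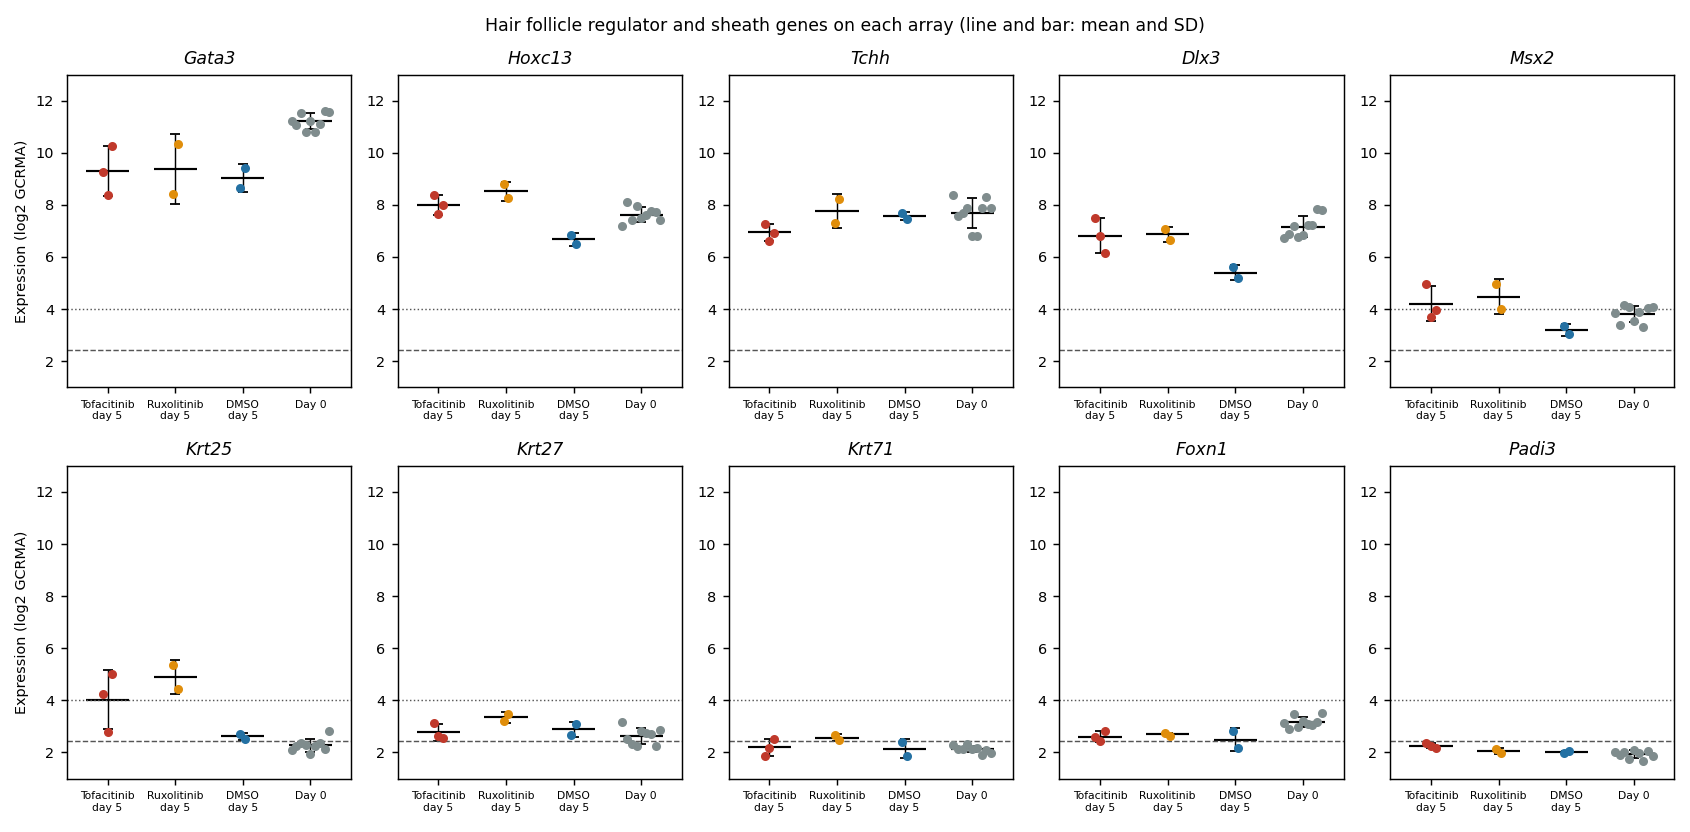
Level (log2 GCRMA value, vertical axis) of each of the 10 genes on every array, in tofacitinib, ruxolitinib and DMSO skin at day 5 and in day-0 skin. Points are arrays, horizontal lines group means and bars SD, the dashed line is the highest control value (2.43) and the dotted line the filter (4). Krt25 lies above 4 on inhibitor arrays alone, Hoxc13 and Dlx3 lie lowest in DMSO skin, and Gata3 lies below all day-0 arrays in every day-5 group.

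Against day 0, tofacitinib skin had 1 of the 6 tested genes higher (Krt25) and 1 lower (Gata3) at an adjusted p under 0.05. Of the 12087 genes tested, 50.1% passed in either direction, 22.7% higher and 27.4% lower. Ruxolitinib skin had 2 higher (Krt25 and Hoxc13) and 1 lower (Gata3), against 34.0% of all genes (12.5% higher and 21.4% lower). DMSO skin had 0 higher and 3 lower (Dlx3, Gata3 and Hoxc13), against 51.1% of all genes (22.2% higher and 28.9% lower). Read against these shares, the counts are no result about the 6 genes, and the 3 comparisons share the 9 day-0 arrays.

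Between day-5 groups far fewer genes passed. Tofacitinib against DMSO passed for 0 of the 6 genes in the limma fit, against 0.165% of all genes. Of the 6, 4 had an unadjusted p under 0.05, and the share of all genes at that looser threshold was not counted. Ruxolitinib against DMSO passed for 1 gene (Hoxc13), against 0.521% of all genes, and the mean of both inhibitors against DMSO for 2 (Hoxc13 and Krt25), against 0.935%, though Krt25 did not pass without the filter (adjusted p = 0.0660). Tofacitinib against ruxolitinib passed for 0 of the 6, against 0.0248% of all genes, and 0 of the 6 had an unadjusted p under 0.05. The comparisons with DMSO share the same 2 DMSO arrays, which came from 2 mice. The genes were chosen with earlier results of these data known, so their counts beside these shares are no result about them as a set.

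**Figure D2:**
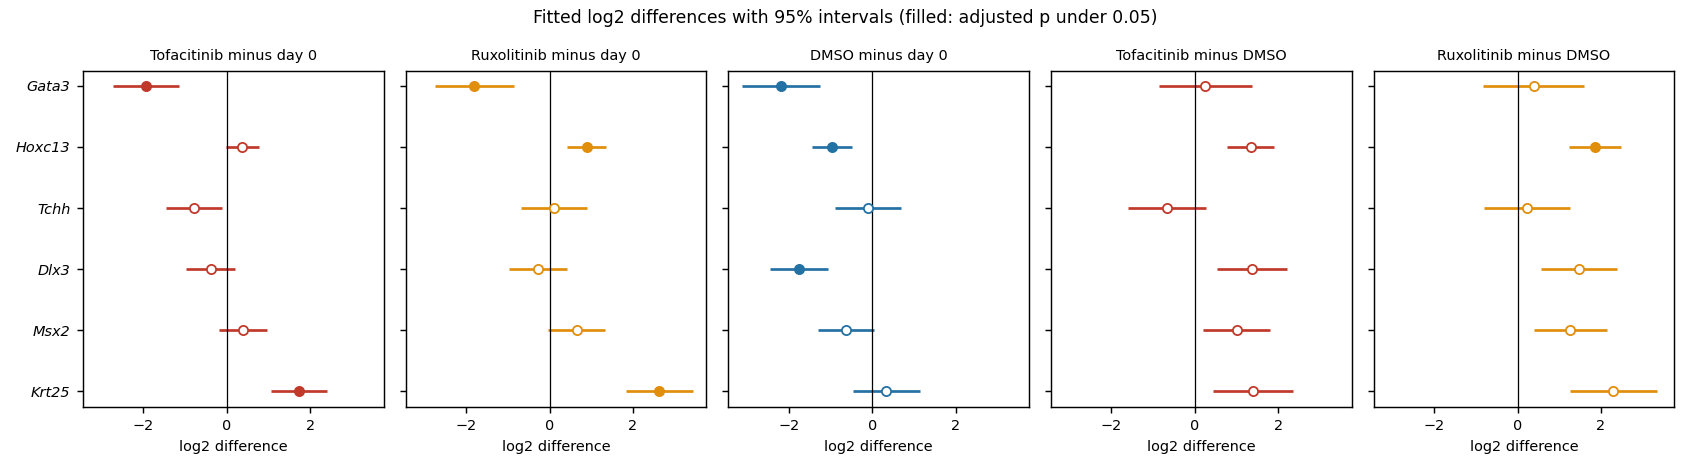
Fitted log2 differences (horizontal axis) of the 6 tested genes (rows) for tofacitinib, ruxolitinib and DMSO skin against day 0, and for tofacitinib and ruxolitinib skin against DMSO skin. Points are estimates, lines 95% intervals, and filled points mark an adjusted p under 0.05. Krt25 reached 1.73 with tofacitinib and 2.63 with ruxolitinib against day 0, and Hoxc13 stood 1.85 above DMSO with ruxolitinib.

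Hoxc13, a homeobox factor that switches on keratin genes of the hair shaft, was higher in ruxolitinib skin and lower in DMSO skin than at day 0. Its level was 8.37, 7.63 and 7.99 in tofacitinib skin, 8.79 and 8.27 in ruxolitinib skin, 6.85 and 6.50 in DMSO skin, and 7.20 at the lowest, 7.60 at the median and 8.11 at the highest of the 9 day-0 arrays. Both ruxolitinib arrays lay above, and both DMSO arrays below, every day-0 array, while the tofacitinib arrays overlapped with day 0. Ruxolitinib skin exceeded day 0 by 0.89 ± 0.22 (SE) on the log2 scale, 1.85-fold (adjusted p = 0.00703), and DMSO skin fell by 0.96 ± 0.22 (adjusted p = 0.00277). Tofacitinib skin differed from day 0 by 0.37 ± 0.19, which did not pass (adjusted p = 0.113).

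The order of Hoxc13 by mean was ruxolitinib, tofacitinib, day 0 and DMSO, and of these neighbours only DMSO and day 0 differed past the threshold. Ruxolitinib against DMSO gave 1.85 ± 0.29, 3.61-fold (adjusted p = 0.0168), and the mean of both inhibitors against DMSO 1.59 ± 0.24 (adjusted p = 0.00823). Tofacitinib against DMSO gave 1.33 ± 0.26 without overlap between arrays, and did not pass (adjusted p = 0.0623). Tofacitinib minus ruxolitinib was -0.52 with an interval of -1.08 to 0.05 (adjusted p = 0.894). Of the Hoxc13 calls, that of ruxolitinib against day 0 was lost without the ruxolitinib array of mouse 4 (0.65, adjusted p = 0.137) and when mouse was fitted as a fixed block (0.76, adjusted p = 0.0754), and that of DMSO against day 0 was lost without the DMSO array of mouse 3 (-0.76, adjusted p = 0.0752). Ruxolitinib against DMSO did not pass with the fixed block (adjusted p = 0.248), nor without the DMSO array of mouse 2 (0.0730) or mouse 3 (0.113) or the ruxolitinib array of mouse 4 (0.108). The mean of both inhibitors against DMSO was likewise lost with the block (adjusted p = 0.398) and without either DMSO array (0.0921 without mouse 2 and 0.116 without mouse 3).

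Msx2, a homeobox factor that answers to BMP signals in the matrix, had 4.96, 3.69 and 3.95 in tofacitinib skin, 4.97 and 4.00 in ruxolitinib skin, 3.36 and 3.03 in DMSO skin, and 3.33, 3.90 and 4.16 as the lowest, median and highest day-0 value. One array of each inhibitor group, from mice 7 and 4, stood above all day-0 arrays, and all 5 inhibitor arrays stood above both DMSO arrays. Tofacitinib exceeded DMSO by 1.01 ± 0.38 (adjusted p = 0.387) and ruxolitinib by 1.27 ± 0.41 (adjusted p = 0.155), and neither passed. None of the comparisons with day 0 passed, and neighbours in the order ruxolitinib, tofacitinib, day 0 and DMSO did not differ past the threshold. DMSO minus day 0 was -0.62 ± 0.32 (adjusted p = 0.113). The second Msx2 probe set was at background on all 16 arrays.

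Dlx3, a homeobox factor of the matrix and of differentiating epidermis, was lowest in DMSO skin. It had 7.49, 6.81 and 6.16 in tofacitinib skin, 7.08 and 6.67 in ruxolitinib skin, 5.60 and 5.20 in DMSO skin, and 6.74, 7.19 and 7.85 as the lowest, median and highest day-0 value. Every inhibitor and day-0 array exceeded both DMSO arrays, and inhibitor arrays overlapped with day 0. DMSO skin fell by 1.75 ± 0.33 against day 0 (adjusted p = 0.000687), a level 3.37-fold lower. The differences from day 0 were -0.39 ± 0.28 with tofacitinib (adjusted p = 0.258) and -0.28 ± 0.33 with ruxolitinib (adjusted p = 0.531). Without the tofacitinib array of mouse 7, whose labels disagree, the first became -0.84 and passed (adjusted p = 0.0235).

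Against DMSO, Dlx3 differed by 1.36 ± 0.39 with tofacitinib (adjusted p = 0.215) and by 1.48 ± 0.43 with ruxolitinib (adjusted p = 0.116). The mean of both inhibitors against DMSO gave 1.42 ± 0.36 (adjusted p = 0.0802). Without the tofacitinib array of mouse 9 the first and the last of these passed, at 1.74 (adjusted p = 0.0465) and 1.61 (adjusted p = 0.0209). In the order day 0, ruxolitinib, tofacitinib and DMSO, no neighbours differed past the threshold. The second Dlx3 probe set was at background on all 16 arrays.

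Gata3, a zinc finger factor that sets the inner root sheath lineage and is also made by T cells and epidermal cells, was lower at day 5 in every arm. It had 9.25, 8.37 and 10.3 in tofacitinib skin, 8.42 and 10.3 in ruxolitinib skin, 8.66 and 9.41 in DMSO skin, and 10.8, 11.2 and 11.6 as the lowest, median and highest day-0 value. All 7 day-5 arrays lay below all day-0 arrays, and the day-5 groups overlapped. On the log2 scale it fell by 1.93 ± 0.37 with tofacitinib (adjusted p = 0.000819), fell by 1.80 ± 0.44 with ruxolitinib (adjusted p = 0.00602) and fell by 2.185 ± 0.44 with DMSO (adjusted p = 0.00105). The ruxolitinib call was lost without the array of mouse 4 (-0.82, adjusted p = 0.252) and when mouse was fitted as a fixed block (-1.42, adjusted p = 0.137).

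Against DMSO, Gata3 differed by 0.25 ± 0.52 with tofacitinib and by 0.39 ± 0.57 with ruxolitinib (adjusted p = 0.936 and 0.757). The intervals ran from -0.86 to 1.36 and from -0.83 to 1.60, too wide to show that the arms were alike. Of 8 tested T cell markers, 5 were lower and 1 was higher with tofacitinib, and 6 were lower with ruxolitinib and 6 with DMSO, each against day 0, where 27.4%, 21.4% and 28.9% of all genes were lower. Of these 8, 4 (Cd3d, Cd3g, Cd2 and Cd7) exceeded 4 at day 0 alone and so entered the test only because they were high there. The mean of the 15 such markers on the array was 3.37 to 3.88 in tofacitinib, 3.37 to 3.48 in ruxolitinib and 3.57 to 3.70 in DMSO skin, against 4.33 to 5.07 at day 0. Cd3d, 1 of these 4 and a chain of the T cell receptor complex, averaged 2.56, 2.88 and 2.43 in these day-5 groups, against 5.46 at day 0. It was at background on both DMSO arrays. Cd3e, another chain, stayed above 4 on every array and averaged 5.39, 5.69 and 6.42, against 8.655 at day 0. Of 14 markers of basal keratinocytes and the outer root sheath, 13 fell with tofacitinib, 12 with ruxolitinib and 13 with DMSO, against the same shares of all genes. Their median log2 difference was -0.86, -0.68 and -1.12, against -0.02, -0.03 and -0.05 over all genes, and 1 of the 14 (Lgr5) exceeded 4 at day 0 alone. In whole skin, fewer cells of a type and less RNA per cell cannot be told apart, and the part of either cell type in the Gata3 difference was not tested.

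Foxn1, the factor missing in nude mice, acts in the differentiating matrix and hair shaft. Its brighter probe set had 2.59, 2.43 and 2.83 in tofacitinib skin, 2.74 and 2.65 in ruxolitinib skin, 2.81 and 2.17 in DMSO skin, and 2.91, 3.13 and 3.504 as the lowest, median and highest day-0 value. Every day-0 array was above background and above every day-5 array, while 1 tofacitinib and 1 DMSO array were at background. In a fit of all 18194 genes without the filter, where 37.5%, 24.2% and 37.3% of genes passed, Foxn1 fell by 0.56 ± 0.15 with tofacitinib (adjusted p = 0.00896) and fell by 0.68 ± 0.17 with DMSO (adjusted p = 0.00758). The ruxolitinib difference was -0.47 ± 0.17 and did not pass (adjusted p = 0.0650). The second Foxn1 probe set was at background on all 7 day-5 arrays and between 2.61 and 3.34 at day 0, so its level was at least 1.38-fold lower in each day-5 group (adjusted p = 0.000221, 0.00140 and 0.00565 for tofacitinib, ruxolitinib and DMSO). Values this near background carry a compressed and uncertain size.

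Krt25, a type I keratin of the inner root sheath, exceeded 4 in inhibitor-treated skin alone. It had 4.26, 2.79 and 5.02 in tofacitinib skin, 5.37 and 4.44 in ruxolitinib skin, 2.72 and 2.51 in DMSO skin, and 1.95, 2.25 and 2.82 as the lowest, median and highest day-0 value. At day 0, 8 of 9 arrays were at background. Both ruxolitinib arrays lay above every DMSO and day-0 array, and the tofacitinib array of mouse 8 alone kept the tofacitinib group from clearing day 0, where mouse 9 had the highest value.

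Krt25 stood 1.73 ± 0.32 above day 0 with tofacitinib (adjusted p = 0.000573, or 0.000937 without the filter) and 2.63 ± 0.37 with ruxolitinib (adjusted p = 0.000144, or 0.000245 without the filter). With tofacitinib the call held in 23 of 23 alternatives, also without mouse 7 (1.58, adjusted p = 0.00284), and with ruxolitinib in 22 of 22. With a filter at 6 Krt25 was not tested, and its 1 probe set makes the mean and second probe set settings repeats. Most alternatives kept the filter that it passed only through inhibitor arrays, so these counts are no independent support. No fold is given, since most day-0 values were at background. DMSO skin differed from day 0 by 0.34 ± 0.37 (adjusted p = 0.466). Against DMSO the differences were 1.39 ± 0.44 with tofacitinib (adjusted p = 0.280) and 2.29 ± 0.49 with ruxolitinib (adjusted p = 0.0521), neither past the threshold. No inhibitor array overlapped with DMSO, but the lowest tofacitinib value stood only 0.07 above the highest DMSO value. The mean of both inhibitors against DMSO was 1.84 ± 0.41 and passed narrowly (adjusted p = 0.0488). That call was lost in 11 of 18 alternatives, among them the fixed mouse block (adjusted p = 0.491), no filter (0.0660) and leaving out the array of DMSO mouse 2 (0.284), DMSO mouse 3 (0.208), ruxolitinib mouse 4 (0.119) or tofacitinib mouse 7 (0.0771). In the order ruxolitinib, tofacitinib, DMSO and day 0, no neighbours differed past the threshold.

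Krt27, another type I inner root sheath keratin, stayed under the filter on every array. It had 3.15, 2.62 and 2.56 in tofacitinib skin, 3.20 and 3.49 in ruxolitinib skin, 2.69 and 3.09 in DMSO skin, and 2.24, 2.71 and 3.16 as the lowest, median and highest day-0 value. Both ruxolitinib arrays were above every other array, by a small margin. In the fit without the filter, ruxolitinib skin exceeded day 0 by 0.73 ± 0.22 (adjusted p = 0.0284). The tofacitinib and DMSO differences from day 0 were 0.15 ± 0.19 and 0.27 ± 0.22 and did not pass (adjusted p = 0.569 and 0.367), nor did ruxolitinib against DMSO, 0.45 ± 0.29 (adjusted p = 0.553).

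Krt71, the type II keratin that pairs with these type I keratins in the sheath, was close to background. It had 1.86, 2.19 and 2.53 in tofacitinib skin, 2.67 and 2.48 in ruxolitinib skin, 2.41 and 1.88 in DMSO skin, and 1.91, 2.14 and 2.31 as the lowest, median and highest day-0 value. The 2 ruxolitinib arrays and the tofacitinib array of mouse 9 were the only ones above background. Ruxolitinib skin was at least 1.10-fold above day 0, which did not pass (adjusted p = 0.0576 without the filter).

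Tchh encodes trichohyalin, which hardens the inner root sheath and the medulla of the hair. It had 7.27, 6.63 and 6.93 in tofacitinib skin, 7.30 and 8.24 in ruxolitinib skin, 7.69 and 7.46 in DMSO skin, and 6.81, 7.87 and 8.38 as the lowest, median and highest day-0 value. All groups overlapped with day 0, and the tofacitinib arrays lay below all ruxolitinib and DMSO arrays. Tofacitinib skin differed from day 0 by -0.78 ± 0.31, just outside the threshold (adjusted p = 0.0508), and it passed without the day-0 array of mouse 5 (-0.88, adjusted p = 0.0211) or mouse 6 (-0.91, adjusted p = 0.0136) and without the tofacitinib array of mouse 7 (-1.01, adjusted p = 0.0353). The differences from day 0 were 0.11 ± 0.37 with ruxolitinib and -0.11 ± 0.37 with DMSO (adjusted p = 0.828 and 0.825). Tofacitinib minus ruxolitinib was -0.89 with an interval of -1.83 to 0.05 (adjusted p = 0.884).

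Padi3, which converts arginines of trichohyalin to citrulline, lay between 1.69 and 2.37 over all 16 arrays, all at background. It was 2.16 to 2.37 in tofacitinib, 1.98 to 2.14 in ruxolitinib, 1.99 to 2.05 in DMSO and 1.69 to 2.11 in day-0 skin. No fold is given, since no group was measured above background.

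RefSeq promoters (build GRCm38.p6) were found for 8 of the 10 genes, all except Hoxc13 and Dlx3. The 250 bases before the start are printed for the inner root sheath products, which are made in the same layers, to show the letters that they share. They lie at chr11:99322952-99323201 (Krt25), chr11:99351119-99351368 (Krt27) and chr15:101743098-101743347 (Krt71), all on the minus strand, and at chr3:93442080-93442329 (Tchh) on the plus strand. Capitals mark the TATA box letters TATAAA and the letters GATAA, a form of the site that GATA factors such as Gata3 are known to bind.
Krt25: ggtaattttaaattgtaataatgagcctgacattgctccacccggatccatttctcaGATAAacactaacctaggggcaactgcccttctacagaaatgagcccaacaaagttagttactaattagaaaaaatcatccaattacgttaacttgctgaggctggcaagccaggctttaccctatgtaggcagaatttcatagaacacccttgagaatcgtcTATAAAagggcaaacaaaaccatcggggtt
Krt27: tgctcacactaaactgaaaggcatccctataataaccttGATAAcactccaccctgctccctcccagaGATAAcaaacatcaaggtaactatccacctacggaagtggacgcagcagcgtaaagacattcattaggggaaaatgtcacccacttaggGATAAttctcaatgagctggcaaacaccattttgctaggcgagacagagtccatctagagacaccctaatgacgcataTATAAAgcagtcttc
Krt71: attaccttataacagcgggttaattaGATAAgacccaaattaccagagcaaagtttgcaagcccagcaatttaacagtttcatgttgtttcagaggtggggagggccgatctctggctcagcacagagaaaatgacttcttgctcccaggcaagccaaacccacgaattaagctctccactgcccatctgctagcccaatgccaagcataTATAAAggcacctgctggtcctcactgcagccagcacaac
Tchh: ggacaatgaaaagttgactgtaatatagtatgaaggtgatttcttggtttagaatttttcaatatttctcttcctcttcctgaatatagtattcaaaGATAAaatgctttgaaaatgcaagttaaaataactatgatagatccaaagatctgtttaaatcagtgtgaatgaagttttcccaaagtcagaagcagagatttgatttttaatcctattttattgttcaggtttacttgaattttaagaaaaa
TATAAA stood in the promoters of Krt25, Krt27 and Krt71, 30, 15 and 40 bases before the start, and in none of the other 5 member promoters, counting both strands. It was found in 12.37% of 32851 promoters. GATAA stood in all 4 printed promoters and in 0 of the other 4, against 22.58% of all promoters. It began 193 bases before the start in Krt25, 211, 182 and 93 in Krt27, 224 in Krt71 and 153 in Tchh. Of the further letters searched, TAATTG was in Krt25 (7.169% of all promoters), CTTTGA in Tchh (13.83%), TTTATT in Tchh and Msx2 (18.08%) and ACGC in Gata3, Krt27 and Msx2 (49.84%). TTTATT can overlap with the reverse of TATAAA, which is TTTATA. A match is a run of letters and not a measured binding site.

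Within single mice, Gata3 was lower at day 5 in 7 of 7 mice, by 0.47 to 3.24, and Foxn1 in 7 of 7, by 0.10 to 1.30 and near background. The share of all genes with the same sign in 7 of 7 mice was not counted. Of the genes tested, 50.1%, 34.0% and 51.1% passed against day 0 with tofacitinib, ruxolitinib and DMSO. Krt25 was higher in 7 of 7, and its 2 smallest differences, 0.15 and 0.48, were those of the DMSO mice, from day-0 values at background. Hoxc13 was higher in 4 of 7 mice and lower in 3. Its day-5 minus day-0 difference was 0.62, -0.08 and 0.56 in the tofacitinib mice, 0.85 and 0.67 in the ruxolitinib mice, and -1.26 and -0.91 in the DMSO mice. Dlx3 was lower in 5 of 7 mice and higher in mice 7 (tofacitinib, 0.28) and 4 (ruxolitinib, 0.32). Msx2 was higher in 3 of 7, with 1.63 in mouse 7 as its largest difference.

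**Figure D3:**
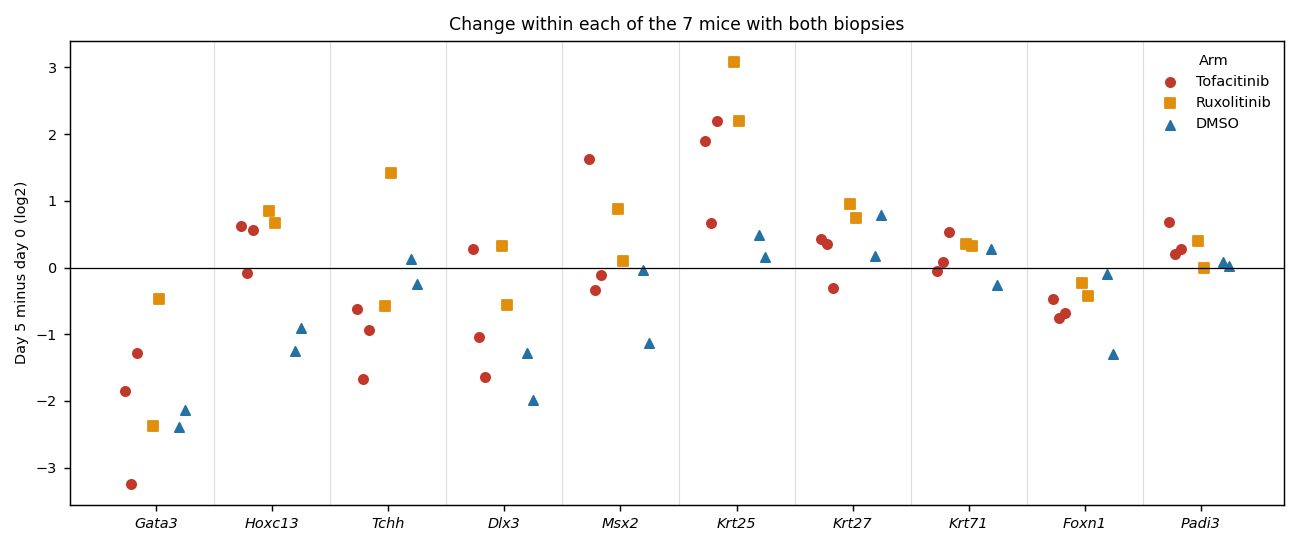
Day-5 minus day-0 level (log2, vertical axis) of each gene in the 7 mice with both arrays, with tofacitinib mice as circles, ruxolitinib mice as squares and DMSO mice as triangles. Gata3 and Foxn1 lie below 0 in every mouse and Krt25 above 0 in every mouse, and the DMSO triangles of Hoxc13 lie below the inhibitor points.

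The array of ruxolitinib mouse 4 had the highest Hoxc13, Krt25 and Msx2 of all 16 arrays, and the second-lowest Gata3, and among the tofacitinib arrays mouse 8 had the lowest Hoxc13, Krt25, Msx2 and Gata3.

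The genes whose pattern over the 16 arrays was most like that of each gene were found by the root mean square difference of centred log2 values among 11674 genes. For Hoxc13 these were Ttyh3 (0.361), Acy3 (0.366) and Scube3 (0.370), and for Msx2 Cdca5 (0.210), Stil (0.264) and Ttyh3 (0.269). Dlx3 was closest to Klk5 (0.218), Aqp9 (0.233) and Mboat2 (0.236), and Gata3 to Lrig3 (0.368), Bcam (0.406) and Clca2 (0.407). Krt25 had no gene within 0.5, the closest being Fras1 (0.529), Syt4 (0.540) and Lyve1 (0.558). These distances describe 16 arrays that share mice and groups and carry no test.

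Other genes of the sheath, shaft and matrix were read from lists of genes known for each compartment. Against day 0, the shares of all genes that were higher and lower were 22.7% and 27.4% with tofacitinib, 12.5% and 21.4% with ruxolitinib, and 22.2% and 28.9% with DMSO, with median log2 differences of -0.02, -0.03 and -0.05. Of 17 other inner root sheath and companion layer genes, 9 were tested, and against day 0, 1 was higher and 4 lower with tofacitinib, 1 and 4 with ruxolitinib, and 2 and 5 with DMSO. Their median difference was 0.04, 0.38 and -1.04 in these arms. Tgm3, a transglutaminase that cross-links trichohyalin and also acts in the epidermis, had 6.34, 6.89 and 5.93 in tofacitinib skin, 7.03 and 6.95 in ruxolitinib skin, 4.11 and 3.61 in DMSO skin, and a day-0 range of 5.55 to 7.54 around a median of 6.27. Only the DMSO arrays left the day-0 range. Tgm3 fell by 2.50 ± 0.41 in DMSO skin against day 0 (adjusted p = 0.000233), and ruxolitinib skin exceeded DMSO skin by 3.20 ± 0.53 (adjusted p = 0.0181). With the mouse as a fixed block, 0 of all genes passed for ruxolitinib against DMSO, so this call was lost. Tofacitinib against DMSO was 2.54 ± 0.49 (adjusted p = 0.0507). Krt17, of the companion layer and outer sheath, was lower in each day-5 group, by 0.99, 1.07 and 1.13 with tofacitinib, ruxolitinib and DMSO (SE 0.15 to 0.17, adjusted p at most 0.000406).

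Few hair shaft keratins and keratin-associated proteins could be tested. Of 34 listed, 25 were on the array, 13 of these were at background on all 16 arrays, and 2 were tested. Krt32, a shaft cuticle keratin, fell by 1.03 with tofacitinib, fell by 1.03 with ruxolitinib and fell by 1.503 with DMSO against day 0 (adjusted p = 0.000804, 0.00373 and 0.000148). Krtap5-1 fell by 1.96 ± 0.31 in DMSO skin (adjusted p = 0.000202), while its differences of -0.56 with tofacitinib and -0.65 with ruxolitinib did not pass (adjusted p = 0.0912 and 0.121).

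Of 27 other matrix and hair lineage transcription factors tested, 3 were higher and 14 lower with tofacitinib, 2 and 10 with ruxolitinib and 1 and 14 with DMSO against day 0. Of all genes, 22.7% were higher and 27.4% lower with tofacitinib, 12.5% and 21.4% with ruxolitinib, and 22.2% and 28.9% with DMSO. The median difference of the 27 was -0.41, -0.29 and -0.68, against -0.02, -0.03 and -0.05 over all genes. One of the 27 (Msx1) exceeded 4 in inhibitor skin alone. Bcl11b, a zinc finger factor of skin and follicle epithelium, had 11.11, 11.17 and 10.82 in tofacitinib skin, 11.08 and 11.47 in ruxolitinib skin, 10.37 and 10.36 in DMSO skin, and 11.94 to 12.47 at day 0. It fell in all 3 arms, by 1.18 ± 0.12, 0.91 ± 0.14 and 1.84 ± 0.14 (adjusted p = 5.091e-06, 0.0003027 and 7.922e-07). Bcl11b was 0.93 ± 0.19 higher with ruxolitinib than with DMSO (adjusted p = 0.0391). This difference from DMSO did not pass once every mouse had a fixed term in the fit, where 0 of 12087 genes passed. Hr, the hairless corepressor, fell by 0.73 with tofacitinib, 0.71 with ruxolitinib and 1.40 with DMSO (adjusted p = 0.00138, 0.00728 and 3.236e-05).

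Of 18 tested ligands and receptors that act on the matrix, 3 were higher and 12 lower with tofacitinib, 2 and 10 with ruxolitinib, and 2 and 11 with DMSO against day 0, beside the same shares of all genes (27.4%, 21.4% and 28.9% lower). Their median difference was -1.03, -0.89 and -1.07, and these 18 include Shh, above 4 in inhibitor skin alone, and Wnt3a, above 4 at day 0 alone. The gene of the Wnt ligand Wnt3 averaged 5.24 ± 0.52 in tofacitinib, 5.27 ± 0.26 in ruxolitinib and 4.93 ± 0.42 in DMSO skin, against 9.02 ± 0.46 at day 0 (SD, n = 3, 2, 2 and 9). Bmp4 averaged 5.20 ± 0.55, 5.47 ± 0.32 and 5.62 ± 0.03 in the same day-5 groups, against 7.84 ± 0.29 at day 0. Both genes fell in each arm, with an adjusted p of at most 4.033e-06 for Wnt3 and 1.594e-05 for Bmp4. Shh, the ligand made by matrix cells, was named after its values were seen. It had 6.95, 3.90 and 4.65 in tofacitinib skin, 7.45 and 5.30 in ruxolitinib skin, 2.73 and 2.27 in DMSO skin, and 2.43 to 3.76 at day 0. It exceeded 4 in inhibitor-treated skin alone, so it entered the test only because it was high there, and its values are given as a description. Krt28, of the inner root sheath list, and Dlx2, of the transcription factor list, were likewise named after their values were seen. Krt28 had 4.67, 3.13 and 3.76 with tofacitinib, 5.21 and 3.105 with ruxolitinib, 2.98 and 2.46 with DMSO, and 3.12 to 4.325 at day 0. Dlx2 had 7.41, 6.94 and 5.3, 8.06 and 6.004, 4.24 and 5.20, and 4.10 to 5.63 in the same order. In both genes inhibitor arrays overlapped with day 0.

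Of 23 suprabasal epidermis genes, markers of the outer part of the labelled whole skin, 0 were at background on all 16 arrays and 1 (Krt2) was at background on both DMSO arrays. Several marker lists moved with the groups. Over 22 cell division genes the mean level was 6.61 to 8.29 in tofacitinib, 7.35 to 8.46 in ruxolitinib and 6.34 to 6.44 in DMSO skin, against 8.05 to 8.83 at day 0. Over the suprabasal epidermis genes it was 10.8 to 11.2, 10.9 to 11.02 and 9.93 to 10.3, against 10.7 to 11.4, so DMSO skin lay lowest in both lists, as it did in Hoxc13 and Dlx3. Skeletal muscle genes lay at 12.0 to 12.8, 12.1 to 12.2 and 12.4 to 12.6 in the day-5 groups, above the day-0 range of 10.8 to 11.6. Fibroblast genes lay at 9.22 to 9.82, 9.59 to 9.69 and 9.05 to 9.37, above 6.70 to 8.43 at day 0. Endothelial genes lay at 5.26 to 5.99, 5.35 to 5.73 and 5.74 to 6.24, above 2.53 to 4.52 at day 0. Melanocyte genes lay at 5.46 to 6.59 with tofacitinib and 5.97 to 6.20 with ruxolitinib. Both ranges lay above 4.13 to 4.69 in DMSO and 3.69 to 4.89 in day-0 skin. Krt25 too exceeded 4 on inhibitor arrays alone, but not on that of tofacitinib mouse 8, which had 2.79 and a melanocyte mean of 5.755. The part of these shifts in the values of the genes described here was not tested.

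**Figure D4:**
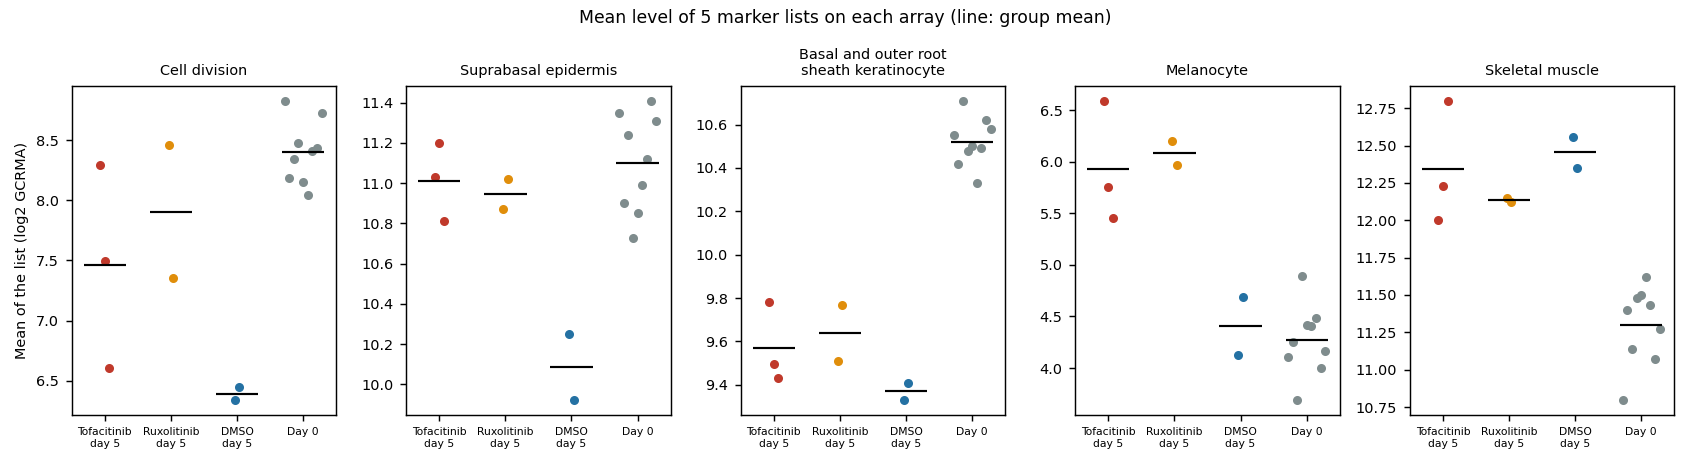
Mean level of 5 marker lists (log2 GCRMA, vertical axis, with a scale of its own in each panel) on every array of tofacitinib, ruxolitinib and DMSO skin at day 5 and of day-0 skin. Points are arrays and lines group means. DMSO arrays lie lowest for cell division and suprabasal epidermis, inhibitor arrays highest for melanocytes, and every day-5 array above day 0 for skeletal muscle.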

How the data were processed

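RNA from flash-frozen whole skin was extracted with a column kit, amplified and labelled with biotin, per the labels' protocols. The authors deposited log2 values per probe set made with GCRMA, per the submitters' processing notes; these notes name neither its version nor the set of arrays normalized at once. Array medians lay between 3.75 and 3.94. The number of arrays limits the precision.

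The 10 genes, the gene lists and the rule for named genes (the 4 tested genes of each list with the smallest p, and for 5 members the 3 genes most alike) were chosen with earlier results of these data known. Genes came from probe sets with exactly 1 symbol, kept where the value exceeded 4 in at least 2 arrays, with the brightest kept probe set per gene. limma 3.58.1 in R 4.3.3 fitted 12087 genes on 16 arrays, with a mean per group and the mouse as a random block (consensus correlation 0.0982, 12 residual and 2.86 prior degrees of freedom), and Benjamini-Hochberg adjusted p within each comparison at a threshold of 0.05. The same fit without the filter covered 18194 genes. The labels place both biopsies on the same mouse; deviations of the 2 arrays of a mouse from their group means correlated above 0.1 in 2 of 7 pairs (range -0.237 to 0.188). Values were prepared in Python 3.11.15. The limma fit was tested on simulated data that had no mouse effect and were fitted without the block, so the block itself was not tested. Motifs were counted on both strands of the 250 bases before each RefSeq start.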

Additional observations from a re-analysis of the deposited data

Results flagged for a closer look

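In day-0 skin the Krt25 value of mouse 9, 2.82, stood apart from the other 8, which lay at 2.37 or below. Dixon's ratio, the gap to the nearest value divided by the range, was 0.521, above its 95% critical value of 0.493 for 9 values. This Krt25 value was the only one so flagged among the day-0 groups of the 10 genes, and chance flags about 1 in 20 groups. Between day-5 groups, the difference of the inhibitor and DMSO arms passed the test for Hoxc13 with ruxolitinib (1.85 ± 0.29), for Hoxc13 with the mean of both inhibitors (1.59 ± 0.24) and for Krt25 with the mean of both inhibitors (1.84 ± 0.41). Each rests on the 2 DMSO arrays. Krt25 entered the test only through inhibitor arrays, and its call was lost without the filter (adjusted p = 0.0660) and in 11 of 18 alternatives in all.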

How the results depend on the processing

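Over the single-gene results of the 6 tested genes, 817 values were recomputed under the alternatives, and 759 kept their direction and their side of the threshold, 27 no longer passed, 13 newly passed and 18 changed sign, all 18 among results that had not passed. The numbers of genes called moved as follows. With the mouse as a fixed replicate block, 1 gene passed for ruxolitinib against day 0, 0 for ruxolitinib against DMSO and 0 for the mean of both inhibitors against DMSO; the block changed no other call. Without any replicate block, 1 passed for the mean of both inhibitors against DMSO, beside 107 of all genes. Without the filter, 4 of 10 passed for tofacitinib against day 0 (Krt25, Gata3, Foxn1 and Padi3, the last at background on all 16 arrays). Of all 18194 genes 37.5% passed there, so this count is no result about the members. For the mean of both inhibitors against DMSO 1 passed without the filter, beside 71 of all genes. Using only the groups compared, 0 passed for ruxolitinib and 0 for the mean of both inhibitors against DMSO. For ruxolitinib against DMSO 2 passed with the mean of kept probe sets, with the second probe set and with a trended robust prior. Of all 12087 genes, 110, 86 and 74 passed in these settings. Each of the 6 tested genes had 1 kept probe set, so both probe set settings left their values unchanged and altered only other genes. For the mean of both inhibitors against DMSO 1 passed with a filter at 6, with the second probe set, with array medians centred and with an RNA quality covariate. Of all genes tested, 97, 93, 83 and 44 passed in these settings. Leaving out 1 array at a time gave 2 to 4 genes for tofacitinib against day 0, 1 to 3 for ruxolitinib against day 0, 0 to 1 for tofacitinib against DMSO, 0 to 1 for ruxolitinib against DMSO and 0 to 3 for the mean of both inhibitors against DMSO. These counts rest on the tofacitinib arrays of mice 7, 8 and 9, the ruxolitinib array of mouse 4 and both DMSO arrays. The tofacitinib array of mouse 8 bore on Krt25 against DMSO, which passed without it (2.004, adjusted p = 0.0422). Over all genes tested, the call against DMSO was for 20 genes with tofacitinib, 63 with ruxolitinib and 113 with the mean of both, against 0 to 121, 1 to 16 and 0 to 373 with 1 array left out, 0 in all of these with the mouse as a fixed replicate block, and 0 to 32, 4 to 110 and 0 to 135 under the other alternatives. Against day 0, 6055 genes passed with tofacitinib, 4104 with ruxolitinib and 6178 with DMSO, and under the block 4768, 1324 and 3701; leaving out 1 array gave as few as 3965, 2007 and 3469.

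Signs turned when 1 array was left out in the following ranges of log2 differences: Msx2 for tofacitinib against day 0, -0.052 to 0.64; Tchh for ruxolitinib against day 0, -0.42 to 0.68, and for DMSO against day 0, -0.23 to 0.0025, with 0.044 under the RNA quality covariate. Against DMSO, Gata3 ranged from -0.22 to 0.72 with tofacitinib, from -0.54 to 1.37 with ruxolitinib and from -0.15 to 0.81 with the mean of both. Tchh ranged from -0.31 to 0.79 with ruxolitinib and from -0.50 to 0.046 with the mean of both. For tofacitinib minus ruxolitinib the ranges were -0.59 to 0.27 in Dlx3, -1.13 to 0.78 in Gata3 and -0.72 to 0.22 in Msx2. The cause of these changes was not tested. Signal over background limits Krt25 at day 0 and all values of Foxn1, Krt27, Krt71 and Padi3.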
